A study of Mus musculus with 6 samples.

Results

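The genes described here are the MAP kinases, the calcium-dependent kinases and the protein phosphatases spotted on a mouse brain cDNA array, read 10 min after naloxone, an opioid receptor antagonist. They are the genes whose single symbol in the platform annotation begins with Mapk, Map2k, Map3k, Map4k, Camk, Prkc, Dusp, Ppp1, Ppp2 or Ppp3. This rule gives 78 genes on 116 probes, of the 6214 genes with a single symbol on the array: 37 with a kinase symbol on 55 probes and 41 with a phosphatase symbol on 61. Of the 78, 77 were measured, 75 of them on all 6 arrays, against 6069 other genes measured. Only Ppp1r13b was not measured, 6 further probes that carry several symbols were left out, and no symbol beginning with Map4k was found. The prefixes also take in genes that are not kinases or phosphatases themselves: Camk2n1 and Camk2n2 encode inhibitors of calcium/calmodulin kinase II, Mapk8ip2 and Mapk8ip3 encode scaffolds, Camkv encodes a kinase-like protein without known kinase activity, and Prkcsh encodes a subunit of glucosidase II. The phosphatase symbols likewise include regulatory subunits and inhibitors, such as Ppp1r1b and Ppp1r14a, beside the catalytic subunits. In the counts below, kinases and phosphatases stand for all genes with such a symbol.

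Brain RNA came from male mice aged 9 weeks. In each strain the treated animals had naloxone for 10 min and the controls had saline for 10 min, and both RNAs were labelled directly and hybridised to the same array. The NY1DD strain, transgenic mice that model sickle cell disease, gave 3 arrays, and wild-type C57BL/6J mice gave the other 3. The labels give no dose, no route and no number of animals behind each RNA. They also do not say whether the arrays of a strain came from separate animals, so a p-value here measures only how the arrays spread, which may be technical. Naloxone RNA was always in the Cy5 channel and saline RNA in the Cy3 channel, so a dye bias that all arrays share cannot be told apart from naloxone within a strain, while it cancels between the strains. The deposited log ratio is likely naloxone over saline, from the design text, but its numerator is not stated. If it is the reverse, every sign below turns. A value of 0 is the median of its array, and a log2 ratio of 1 is a 2-fold ratio. The ratios give no level of a transcript in either RNA, so the labelled tissue could not be checked against the level of its markers.

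MAP kinase signalling is a relay in which a MAP kinase kinase kinase phosphorylates a MAP kinase kinase, which phosphorylates a MAP kinase. The MAP kinases then act on transcription factors and other kinases. Calcium entering a neuron binds calmodulin, which switches on the calcium/calmodulin kinases and calcineurin, while calcium and diacylglycerol switch on the classical protein kinases C. Dual-specificity phosphatases remove the activating phosphates from MAP kinases, and protein phosphatases 1 and 2A and calcineurin oppose the serine and threonine kinases. Opioid receptors couple to inhibitory G proteins, and in neurons they are known to act on calcium channels, cAMP and the MAP kinase relay. The activity of these enzymes depends on phosphorylation, calcium and partner proteins as well as on their amount, and RNA arrays measure only the transcripts.

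On NY1DD replicate 2 the position of a probe on the source plates (its well) accounted for 27.0% of the variance of the log2 ratios, against 3.29% to 11.0% on the other 5 arrays, and the counts of the gene groups are given with and without this array. The sample titles of C57BL/6J replicates 1 and 2 share a number of unstated meaning. No such number is shared between the strains, so anything it marks cannot be told apart from strain in NY1DD minus C57BL/6J. Across the 75 to 77 members a pair of arrays shares, which are not independent replicates, the members' log2 ratios were nearly unrelated between arrays. For pairs of NY1DD arrays Pearson's r of the members lay between -0.14 and 0.06, for pairs of C57BL/6J arrays between -0.19 and 0.02, and for pairs across the strains between -0.15 and 0.23. For the same kinds of pair r of all other genes lay between 0.03 and 0.17, between 0.04 and 0.14, and between -0.07 and 0.18.

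No kinase or phosphatase passed the test in either strain, in the difference between the strains or in their average. In limma's test with Benjamini-Hochberg adjustment over 9685 features, called features numbered 0 (0%) in each of the 4 comparisons at an adjusted p under 0.05, and the lowest adjusted p of a member was 0.531 in NY1DD, 0.436 in C57BL/6J, 0.969 for NY1DD minus C57BL/6J and 0.326 for the average. At an unadjusted p under 0.05, 4 of 77 members were positive in NY1DD, where 3.46% of all features were, and 2 were negative, where 4.90% were. In C57BL/6J, 1 member was positive (all features 1.76%) and 1 was negative (5.19%). For NY1DD minus C57BL/6J, 2 members were positive (2.76%) and 2 were negative (1.74%). For the average of both strains, 1 was positive (3.39%) and 2 were negative (7.38%), and 40 of 77 means were above 0, against 48.2% of all features. On these counts of 1 to 4 genes, the members' shares were above those of all features on the positive side of NY1DD and the negative side of the difference, and below them in the other 6 cases.

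The members with the lowest unadjusted p were Camk2a, Map3k7, Ppp1r1b and Ppp2r2c on the positive side in NY1DD and Mapk12 and Mapk4 on the negative side. In C57BL/6J they were Camk2n1 on the positive side and Mapkapk2 on the negative side. For the difference between the strains they were Camk2a and Map3k7 above 0 and Mapk4 and Ppp1r16b below it. For the average they were Ppp2r2a above 0 and Mapk12 and Ppp2ca below it. Of all these, Camk2a, Map3k7, Ppp1r1b, Mapk12, Mapk4, Mapkapk2 and Ppp2r2a were each read by only 1 probe. Their values could not be compared between probes. In the plot of strain means the members form a cloud centred near 0 in both strains. A low p did not always go with a large mean. In NY1DD, Ppp1r16a (0.59) and Ppp1r12b (-0.58) lay farther from 0 than Ppp2r2c (0.36) and Mapk4 (-0.38).

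**Figure D1:**
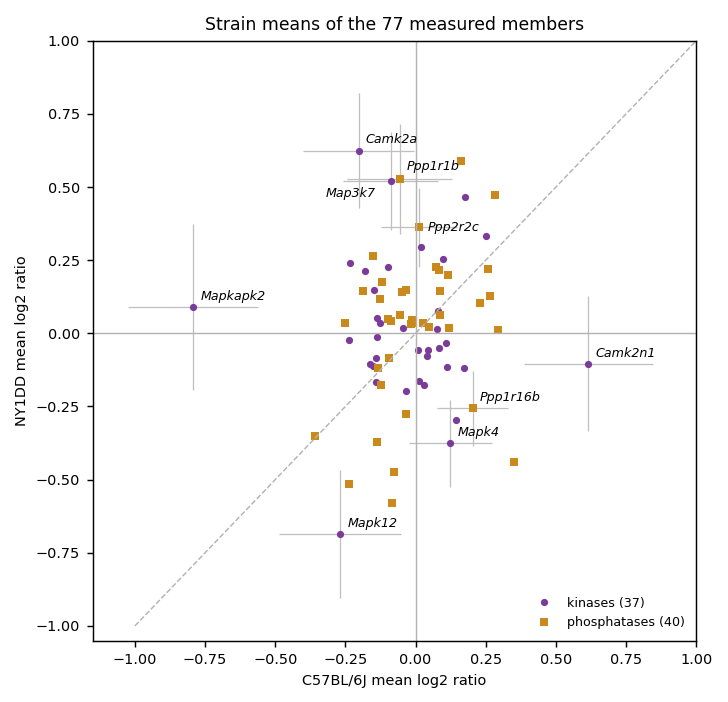
Mean log2 ratio of each of the 77 measured members in NY1DD (vertical axis) against C57BL/6J (horizontal axis), with 37 kinases as circles and 40 phosphatases as squares. Genes with an unadjusted limma p under 0.05 in a strain or in the difference are named with bars of 1 SE; the dashed line marks equal values, and Camk2a, Map3k7, Ppp1r1b and Ppp2r2c lie above it while Mapk4, Ppp1r16b and Camk2n1 lie below it.

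The 3 NY1DD arrays lay apart from the 3 C57BL/6J arrays for 10 of the 75 members measured on all 6. NY1DD was above C57BL/6J without overlap for 7 (Camk2a, Camkk2, Map3k7, Ppp1r1b, Ppp2r2c, Ppp2r5d and Ppp3ca), or 9.33%, against 5.23% of all features. NY1DD was below C57BL/6J without overlap for 3 (Mapk4, Ppp1r16b and Ppp3cb), or 4%, against 4.19%. All 6 arrays were positive for Ppp1r12c and Ppp3cb, or 2.67% of the 75, against 2.43% of features, and all 6 were negative for Ppp2ca, or 1.33%, against 4.65%. None of these genes passed the test. After the median of each well was subtracted on each array (the well correction, chosen after seeing the data), NY1DD was above C57BL/6J without overlap for 5 of 75 (6.67%, against 5.44% of all features) and below it for 0 (against 4.78%). The 5 were Camkk2, Ppp2r2c, Ppp2r5d and Ppp3ca, which were among the 10, and Map2k1, so the strains then overlapped for Camk2a, Map3k7, Ppp1r1b, Mapk4, Ppp1r16b and Ppp3cb.

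To show the DNA just upstream of these genes, the 250 bases before the annotated start are printed for 4 members whose strains did not overlap, up to 2 on each side, with the lowest p among those with a window in the RefSeq promoter table (GRCm38.p6). Camk2a, Ppp1r1b and Mapk4 are named only. Capitals mark TGACG or its reverse complement CGTCA, the core of the cAMP response element bound by CREB, a factor that calcium/calmodulin kinase IV and kinases downstream of the MAP kinases phosphorylate.
Map3k7, chr4:31963857-31964106, plus strand: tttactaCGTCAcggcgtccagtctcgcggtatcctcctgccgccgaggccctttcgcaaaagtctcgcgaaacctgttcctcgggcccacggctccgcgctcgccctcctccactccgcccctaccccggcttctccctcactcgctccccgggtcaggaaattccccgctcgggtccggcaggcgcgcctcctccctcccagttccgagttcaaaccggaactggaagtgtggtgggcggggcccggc
Ppp2r2c, chr5:36868260-36868509, plus strand: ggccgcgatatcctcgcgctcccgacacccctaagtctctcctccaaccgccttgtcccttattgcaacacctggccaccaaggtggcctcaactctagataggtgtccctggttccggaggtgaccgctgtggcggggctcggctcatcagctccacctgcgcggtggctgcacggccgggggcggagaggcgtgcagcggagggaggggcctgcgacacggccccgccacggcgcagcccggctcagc
Ppp1r16b, chr2:158666483-158666732, plus strand, 1 of 2 windows: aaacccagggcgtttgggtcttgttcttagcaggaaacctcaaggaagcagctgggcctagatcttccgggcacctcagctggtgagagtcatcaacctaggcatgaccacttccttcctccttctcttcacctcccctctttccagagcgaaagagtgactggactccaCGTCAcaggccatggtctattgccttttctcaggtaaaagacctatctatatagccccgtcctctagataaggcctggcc
Ppp3cb, chr14:20546574-20546823, minus strand: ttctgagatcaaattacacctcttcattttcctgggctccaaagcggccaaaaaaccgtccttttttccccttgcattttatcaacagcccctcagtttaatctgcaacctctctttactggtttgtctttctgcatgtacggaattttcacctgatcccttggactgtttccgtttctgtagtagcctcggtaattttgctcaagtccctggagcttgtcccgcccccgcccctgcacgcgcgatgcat
Map3k7 and the window of Ppp1r16b each held 1 match, and Ppp2r2c and Ppp3cb held 0, so a match stood once on each side of the strain difference. Over the 58 members with a window in the table, TGACG on either strand was found in 25 of 69 windows (36.2%), against 27.2% of the 6508 windows of other measured genes and 17.8% of all 32851 windows. The full palindrome TGACGTCA, which contains TGACG, was found in only 4 of the members' 69 windows (5.80%), against 2.78% of those of other measured genes and 1.55% of all. A match is a stretch of letters and not a measured binding site.

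Among the MAP kinases proper, all 6 measured genes had a negative mean in NY1DD, while 5 of 6 had a positive mean in C57BL/6J. Of all features, 47.5% had a positive mean in NY1DD, 49.7% in C57BL/6J and 48.4% in the difference between the strains. The median was -0.21 in NY1DD and 0.10 in C57BL/6J, and the difference NY1DD minus C57BL/6J was negative for all 6, with a median of -0.35. None of the 6 passed the test in a strain or in the difference. The counts rested partly on NY1DD replicate 2: without it 2 of 6 were positive in NY1DD and 1 of 6 in the difference. After subtracting the median of each well on each array, 2 of 6 were positive in NY1DD and 0 of 6 in the difference.

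Mapk12, a p38-type MAP kinase best known from skeletal muscle, had log2 ratios of -1.06, -0.22 and -0.78 on the NY1DD arrays, against 0.02, -0.08 and -0.74 on the C57BL/6J arrays. All 3 NY1DD arrays and 2 of the 3 C57BL/6J arrays were negative. The groups overlapped, because C57BL/6J replicate 3 lay below NY1DD replicate 2. Its NY1DD mean of -0.69 (SE 0.22) was the lowest of all 77 members, with an adjusted p of 0.535 in limma, and the difference between the strains was -0.42 (SE 0.31). Mapk4, an atypical MAP kinase, had -0.56, -0.50 and -0.07 on the NY1DD arrays, against 0.22, 0.14 and 0.02 on the C57BL/6J arrays. Every NY1DD array was negative and every C57BL/6J array was positive. The difference was -0.50 (SE 0.21), with an unadjusted p of 0.0482 and an adjusted p of 0.969 in limma. With the well correction NY1DD replicate 3 was at 0.04 and C57BL/6J replicate 3 at -0.07, so the strains overlapped.

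The 3 JNK genes encode the stress-activated kinases that phosphorylate Jun, and Mapk10 is the member found mainly in neurons. Mapk8 had 0.28, -1.35 and 0.17 on the NY1DD arrays, against -0.11, 0.23 and 0.31 on the C57BL/6J arrays. Its NY1DD mean of -0.30 (SE 0.31) came from replicate 2 alone, where the median of all probes in its well was itself -0.64. After the well correction Mapk8 was still at -0.71 on replicate 2, with a NY1DD mean of -0.19. The other 2 NY1DD arrays lay among the C57BL/6J values before correction, and the NY1DD mean was 0.23 without replicate 2. Mapk9, read by 3 probes, had 0.04, -0.08 and -0.11 on the NY1DD arrays, against -0.01, -0.02 and 0.28 on the C57BL/6J arrays, and Mapk10, read by 2, had 0.26, -0.51 and -0.11 on the NY1DD arrays, against 0.01, 0.27 and 0.24 on the C57BL/6J arrays. The value of Mapk9 farthest from 0 was 0.28, while the lowest value of Mapk10 was again on NY1DD replicate 2, where 1 of its probes had -1.19 in a well with a median of -0.92. Mapk15, another atypical MAP kinase, had means of -0.06 (SE 0.17) in NY1DD and 0.01 (SE 0.17) in C57BL/6J.

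**Figure D2:**
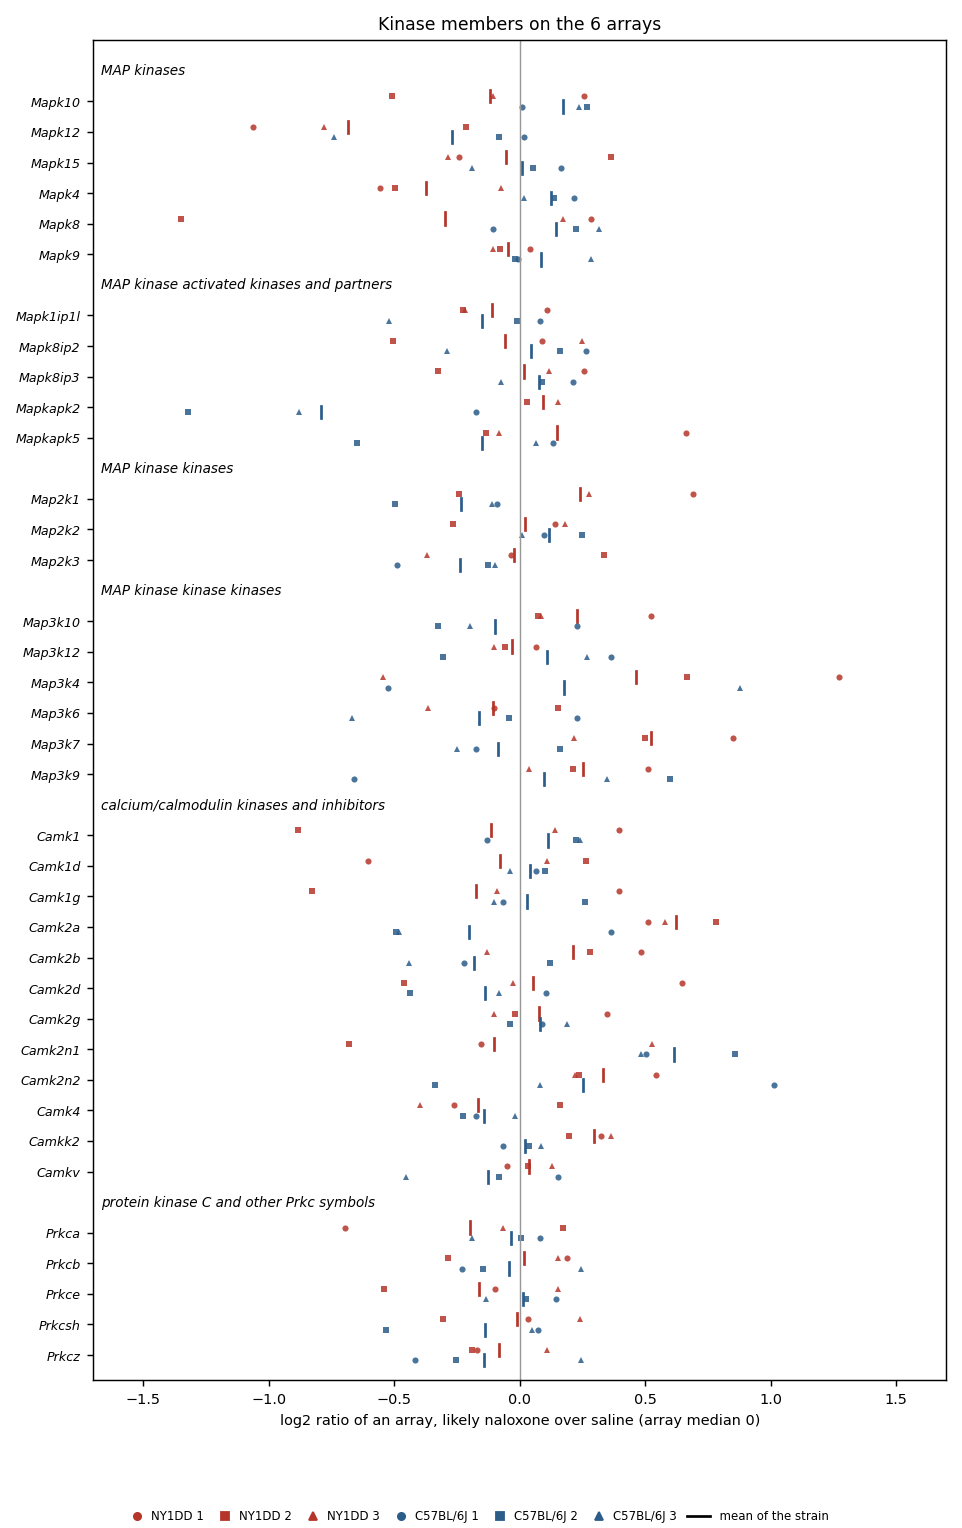
Log2 ratios of the 37 kinase members (1 row each, grouped by role) on the 3 NY1DD arrays (red, above) and the 3 C57BL/6J arrays (blue, below), with replicates 1, 2 and 3 as circle, square and triangle and a vertical bar at the strain mean. Camk2a and Map3k7 have all NY1DD points right of the C57BL/6J points, Mapk4 has them left, and Mapk8 has its lowest point on NY1DD replicate 2.

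The kinases activated by MAP kinases and the proteins that bind them gave 5 genes, of which 3 had a positive mean in NY1DD and 2 in C57BL/6J. Mapkapk2, a kinase that p38 switches on, was missing on NY1DD replicate 1 and had 0.03 and 0.15 on the other 2 NY1DD arrays, against -0.18, -1.32 and -0.88 on the C57BL/6J arrays. Both NY1DD values lay above all 3 C57BL/6J values, which spread over more than 1 log2 unit. Its C57BL/6J mean of -0.79 (SE 0.23) was the lowest of all members in that strain, with an unadjusted p of 0.0137 and an adjusted p of 0.436 in limma. Mapkapk5, a related kinase, had means of 0.15 (SE 0.23) in NY1DD and -0.15 (SE 0.23) in C57BL/6J. The JNK scaffolds Mapk8ip2 and Mapk8ip3 and the gene Mapk1ip1l had means between -0.11 and 0.02 in NY1DD and between -0.15 and 0.07 in C57BL/6J.

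Above the MAP kinases in the relay, Map2k1 and Map2k2 encode kinases that phosphorylate MAP kinases. Map2k1 had 0.69, -0.24 and 0.27 on the NY1DD arrays, against -0.09, -0.50 and -0.11 on the C57BL/6J arrays. The C57BL/6J arrays were all negative and the NY1DD arrays ran over both signs, so the groups overlapped, with a difference of 0.47 (SE 0.28), which was 0.72 without NY1DD replicate 2. Map2k2 had 0.14, -0.27 and 0.18 on the NY1DD arrays, against 0.10, 0.25 and 0.01 on the C57BL/6J arrays, and here the C57BL/6J arrays were all positive. Map2k3, which phosphorylates the p38 kinases, had -0.03, 0.34 and -0.37 on the NY1DD arrays, against -0.49, -0.13 and -0.10 on the C57BL/6J arrays, again with 1 NY1DD array on the other side of 0 from its 2 companions. No MAP kinase kinase had an adjusted p under 0.740 in either strain.

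At the head of the relay, 4 of 6 MAP kinase kinase kinases had a positive mean in NY1DD (median 0.24) and 3 of 6 in C57BL/6J (median 0.00). Map3k7, also called TAK1, which relays cytokine and TGF-beta signals to JNK, p38 and NF-kappaB, had 0.85, 0.50 and 0.22 on the NY1DD arrays, against -0.17, 0.16 and -0.25 on the C57BL/6J arrays. All 3 NY1DD arrays were above all 3 C57BL/6J arrays. The NY1DD mean was 0.52 (SE 0.17), a 1.44-fold ratio with an unadjusted p of 0.0172 and an adjusted p of 0.535 in limma, and the difference was 0.61 (SE 0.24). After the well correction NY1DD replicate 3, at 0.02, was below C57BL/6J replicate 2, at 0.12. Its promoter window, printed above, was 1 of the 25 with TGACG.

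The mixed-lineage kinases Map3k9 and Map3k10, which feed the JNK branch, were positive on all 3 NY1DD arrays, with means of 0.25 (SE 0.25) and 0.23 (SE 0.17), and took both signs in C57BL/6J, where the means were 0.10 (SE 0.25) and -0.10 (SE 0.17). Map3k12, a kinase of the axon injury response, and Map3k6 stayed near 0 in NY1DD at -0.03 (SE 0.17) and -0.11 (SE 0.20). Map3k4 was missing on C57BL/6J replicate 2, where its value was at the lower limit of the table, and ran from -0.55 to 1.27 on the NY1DD arrays, the widest spread of the kinase symbols in that strain (SD 0.93). This group's median in NY1DD was 0.29 without replicate 2 and 0.17 after the well correction.

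Of the 12 calcium/calmodulin kinase symbols, 7 had a positive mean in NY1DD and 7 in C57BL/6J, and the medians of 0.04 and 0.02 were alike. Without NY1DD replicate 2 the NY1DD count was 10 of 12 and the median 0.18, while after the well correction the count was 6 of 12 and the median -0.02. Camk2a, the forebrain subunit of calcium/calmodulin kinase II at excitatory synapses, had 0.51, 0.78 and 0.58 on the NY1DD arrays, against 0.36, -0.49 and -0.48 on the C57BL/6J arrays. The NY1DD arrays were the most even of the 4 subunits and all lay above the C57BL/6J arrays, which took both signs. The NY1DD mean of 0.62 (SE 0.20), a 1.54-fold ratio, was the highest of all 77 members, with an unadjusted p of 0.0155 and an adjusted p of 0.531 in limma. The difference was 0.83 (SE 0.28), with an unadjusted p of 0.0205 and an adjusted p of 0.969. After the well correction the NY1DD mean was 0.52 and the difference 0.71, but NY1DD replicate 1, at 0.40, was then below C57BL/6J replicate 1, at 0.43.

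The other subunits of the same holoenzyme did not show this separation. Camk2b had 0.48, 0.28 and -0.13 on the NY1DD arrays, against -0.22, 0.12 and -0.44 on the C57BL/6J arrays. Camk2d had 0.65, -0.46 and -0.03 on the NY1DD arrays, against 0.10, -0.44 and -0.08 on the C57BL/6J arrays, and Camk2g had 0.35, -0.02 and -0.10 on the NY1DD arrays, against 0.09, -0.04 and 0.19 on the C57BL/6J arrays. In all 3 the strains overlapped, and their differences were 0.39 (SE 0.25), 0.19 (SE 0.32) and 0.00 (SE 0.21).

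The inhibitors of this kinase, Camk2n1 and Camk2n2, bind its active form. Camk2n1 had -0.16, -0.68 and 0.52 on the NY1DD arrays, against 0.50, 0.86 and 0.48 on the C57BL/6J arrays. All C57BL/6J arrays were positive, and NY1DD replicate 3 fell among them while the other 2 NY1DD arrays were negative. The C57BL/6J mean was 0.61 (SE 0.23), the highest of all members in that strain, with an unadjusted p of 0.0313 and an adjusted p of 0.631 in limma. Its 3 probes disagreed: their NY1DD means were -0.97, 0.06 and 0.60, and their C57BL/6J means were 1.40, 0.03 and 0.42, in that order. The difference of the gene was -0.72 (SE 0.33), and -0.43 without NY1DD replicate 2. Only the first probe was lower in NY1DD than in C57BL/6J, while the other 2 were higher. That first probe had -1.90 on NY1DD replicate 2, in a well with a median of -0.50 there. On NY1DD replicate 1 it had -1.19, where the median of its well was 0.03. After the well correction the difference of the gene was -0.66. Camk2n2 had means of 0.33 (SE 0.25) in NY1DD and 0.25 (SE 0.25) in C57BL/6J.

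Camkk2 encodes the kinase that activates the calcium/calmodulin kinases I and IV. It had 0.32, 0.20 and 0.36 on the NY1DD arrays, against -0.07, 0.04 and 0.09 on the C57BL/6J arrays. All 3 NY1DD arrays were above the C57BL/6J arrays, and the NY1DD mean was 0.29 (SE 0.13) with an unadjusted p of 0.0514 and an adjusted p of 0.588 in limma. Of its targets, Camk4, a nuclear kinase of CREB, had -0.26, 0.16 and -0.40 on the NY1DD arrays, against -0.17, -0.23 and -0.02 on the C57BL/6J arrays. The targets Camk1, Camk1d and Camk1g had NY1DD means of -0.12 (SE 0.25), -0.08 (SE 0.19) and -0.18 (SE 0.23) against C57BL/6J means of 0.11 (SE 0.25), 0.04 (SE 0.19) and 0.03 (SE 0.23). Camk1 and Camk1g each had their lowest value, -0.88 and -0.83, on NY1DD replicate 2, and means of 0.27 and 0.15 in NY1DD without it. Camkv had means of 0.04 (SE 0.15) in NY1DD and -0.13 (SE 0.15) in C57BL/6J.

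The symbols that begin with Prkc were negative in 4 of 5 cases in each strain, with medians of -0.08 in NY1DD and -0.04 in C57BL/6J. Without NY1DD replicate 2 the NY1DD count was 2 of 5 negative. The classical isoforms Prkca and Prkcb, which need calcium, had -0.70, 0.17 and -0.07 on the NY1DD arrays, against 0.08, 0.00 and -0.19 on the C57BL/6J arrays and 0.19, -0.29 and 0.15 on the NY1DD arrays, against -0.23, -0.15 and 0.24 on the C57BL/6J arrays, in that order. Prkce, an isoform that needs diacylglycerol but not calcium, had -0.10, -0.54 and 0.15 on the NY1DD arrays, against 0.15, 0.02 and -0.14 on the C57BL/6J arrays. Each of the 3 took both signs within both strains, and their adjusted p was at least 0.767 in NY1DD. Prkcz, an atypical isoform, had means of -0.08 (SE 0.17) in NY1DD and -0.14 (SE 0.17) in C57BL/6J, and Prkcsh had -0.01 (SE 0.18) and -0.14 (SE 0.18).

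The phosphatase symbols had more positive than negative means in NY1DD: 29 of 40 (72.5%) were above 0, against 48.6% of all other genes, and 47.5% of all features. In C57BL/6J 17 of 40 (42.5%) were above 0, against 50.8% of all other genes and 49.7% of all features. For NY1DD minus C57BL/6J 25 of 40 (62.5%) were above 0, against 47.6% and 48.4%. The kinase symbols were split evenly, with 17 of 37 above 0 in NY1DD, 19 of 37 in C57BL/6J and 19 of 37 in the difference. The phosphatase count in NY1DD was 22 of 40 without NY1DD replicate 2 and 24 of 40 after the well correction. The kinase count was 24 of 36 without that array, so the order of the 2 gene sets in NY1DD rested on it.

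The sizes behind these counts were small. The median of the phosphatases minus that of all other genes was 0.12, 0.08 and 0.02 on the NY1DD arrays, against 0.00, 0.03 and 0.06 on the C57BL/6J arrays. The same difference for the kinases was 0.16, -0.08 and 0.08 on the NY1DD arrays, against 0.06, -0.03 and -0.03 on the C57BL/6J arrays. The phosphatase values were at 0.00 or above on all 6 arrays, and those of the strains overlapped. The kinase values took both signs within both strains. Over the arrays, the phosphatase values had a mean of 0.07 (SD 0.05) in NY1DD and 0.03 (SD 0.03) in C57BL/6J. Those of the kinases had 0.05 (SD 0.12) and 0.00 (SD 0.05). Taken on the strain means of the genes instead, the difference of medians was 0.06 in NY1DD and -0.03 in C57BL/6J for the phosphatases. For the kinases it was -0.01 and 0.00. So the sign depended on the summary for the phosphatases in C57BL/6J and the kinases in NY1DD. Without NY1DD replicate 2 the kinase difference on strain means in NY1DD was 0.16.

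**Figure D3:**
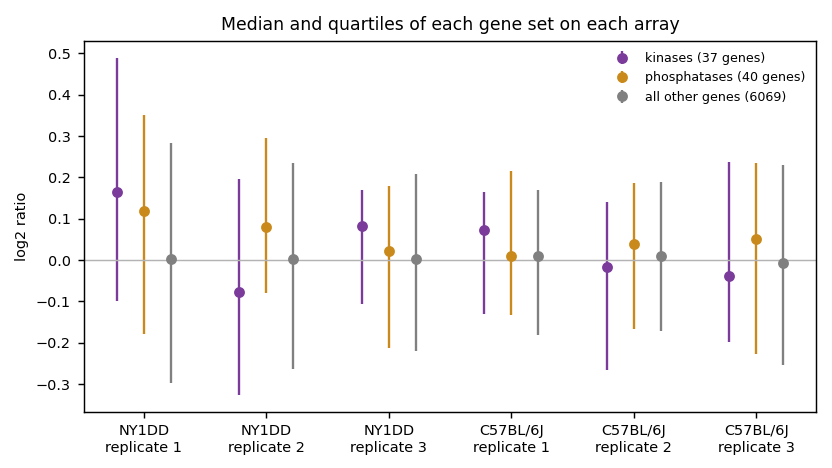
Median log2 ratio (points) and quartiles (bars) of the 37 kinases, the 40 phosphatases and the 6069 other genes on each of the 3 NY1DD and 3 C57BL/6J arrays. The quartiles of the 3 gene sets overlap on every array, and the kinase median is below 0 on NY1DD replicate 2 and above 0 on NY1DD replicates 1 and 3.

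Agreement over replicates was also compared. In NY1DD 16 of 76 members were positive on all 3 arrays (21.1%, 6 kinase and 10 phosphatase symbols), against 13.6% of all features, and 5 were negative on all 3 (6.58%), against 14.9%. In C57BL/6J 9 of 76 were positive on all 3 (11.8%), against 14.1%, and 7 were negative on all 3 (9.21%), against 17.1%. The 10 phosphatase symbols of the first count were Ppp1ca, Ppp1ccb, Ppp1r1b, Ppp1r7, Ppp1r11, Ppp1r12c, Ppp2r2a, Ppp2r2c, Ppp2r5d and Ppp3cb. The 6 kinase symbols were Camk2a, Camk2n2, Camkk2, Map3k7, Map3k9 and Map3k10. The spread between replicates was like that of other genes: the median SD over arrays was 0.30 for kinases, 0.27 for phosphatases and 0.31 for all other genes in NY1DD, and 0.23, 0.23 and 0.24 in C57BL/6J.

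Of the dual-specificity phosphatases, 5 of 7 had a positive mean in NY1DD and 2 of 7 in C57BL/6J. The NY1DD count was 3 of 7 without replicate 2 and 2 of 7 after the well correction. Dusp6, a cytoplasmic phosphatase of MAP kinases and a transcriptional target of their pathway, had -0.17, 0.12 and 0.18 on the NY1DD arrays, against -0.30, -0.01 and 0.05 on the C57BL/6J arrays. Both strains took both signs, and its means were 0.04 (SE 0.15) in NY1DD and -0.09 (SE 0.15) in C57BL/6J. Dusp26, a phosphatase found in brain, had -0.01, 0.13 and 0.26 on the NY1DD arrays, against 0.24, 0.41 and 0.15 on the C57BL/6J arrays. Only NY1DD replicate 1 was below 0, and the C57BL/6J mean of 0.27 (SE 0.13) was the second-ranked positive value of that strain by p, with an adjusted p of 0.802 in limma.

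Dusp4, an early-response phosphatase of the nucleus, had means of -0.08 (SE 0.21) in NY1DD and -0.09 (SE 0.21) in C57BL/6J. Dusp7 and Dusp8, which also act on MAP kinases, had NY1DD means of 0.04 (SE 0.22) and 0.02 (SE 0.13) and C57BL/6J means of -0.01 (SE 0.22) and 0.05 (SE 0.13). Dusp15 had 0.26 (SE 0.18) in NY1DD and -0.15 (SE 0.18) in C57BL/6J, and its 2 probes had NY1DD means of -0.14 and 0.67. Dusp23 had the lowest NY1DD mean of the family, -0.37 (SE 0.26), with a C57BL/6J mean of -0.14 (SE 0.26). The early-response gene Dusp1 is not analysed here.

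Of 18 protein phosphatase 1 symbols, 13 had a positive mean in NY1DD (median 0.08) and 9 in C57BL/6J (median 0.00). The NY1DD count was 10 of 18 without replicate 2 and 13 of 18 after the well correction. The catalytic subunit Ppp1ca had 0.36, 0.04 and 0.04 on the NY1DD arrays, against 0.13, 0.03 and -0.26 on the C57BL/6J arrays. The catalytic subunit Ppp1cb had 0.35, -0.63 and 0.31 on the NY1DD arrays, against -0.03, 0.18 and 0.73 on the C57BL/6J arrays, with its lowest value on NY1DD replicate 2. Neither separated the strains, and their NY1DD means were 0.15 (SE 0.15) and 0.01 (SE 0.24). Ppp1ccb is a near copy of Ppp1cc, so its value may include signal of that gene; its means were 0.14 (SE 0.15) in NY1DD and -0.05 (SE 0.15) in C57BL/6J.

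The regulatory subunits steer protein phosphatase 1 to its substrates or block it. Ppp1r1b encodes the dopamine- and cAMP-regulated inhibitor of the enzyme in striatal neurons. It had 0.77, 0.35 and 0.46 on the NY1DD arrays, against -0.03, 0.35 and -0.49 on the C57BL/6J arrays. The lowest NY1DD value and the highest C57BL/6J value were both 0.35 after rounding, and the NY1DD arrays lay just above. The NY1DD mean was 0.53 (SE 0.19), a 1.44-fold ratio with an unadjusted p of 0.0261 and an adjusted p of 0.578 in limma, and the difference was 0.58 (SE 0.27). After the well correction the lowest NY1DD value was 0.32 and the highest C57BL/6J value 0.41, so the strains overlapped. The related inhibitor Ppp1r1a had means of 0.23 (SE 0.20) in NY1DD and 0.07 (SE 0.20) in C57BL/6J.

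Ppp1r16b, a membrane-bound subunit best known from endothelium, had -0.37, -0.14 and -0.26 on the NY1DD arrays, against 0.27, 0.18 and 0.17 on the C57BL/6J arrays. All NY1DD arrays were negative and all C57BL/6J arrays were positive, and both of its probes had a negative mean in NY1DD (-0.41 and -0.11) and a positive mean in C57BL/6J (0.24 and 0.17). The difference was -0.46 (SE 0.18), with an unadjusted p of 0.0367 and an adjusted p of 0.969 in limma. Under the well correction NY1DD replicate 2 was positive, at 0.15, and lay above C57BL/6J replicate 3, at 0.06. Its relative Ppp1r16a spread over 1.18, -0.74 and 1.32 in NY1DD, more than 2 log2 units, with its low value on replicate 2 and a mean of 1.25 without it. Of the myosin phosphatase subunits, Ppp1r12b had -1.54, 0.30 and -0.51 on the NY1DD arrays, against 0.13, -0.27 and -0.11 on the C57BL/6J arrays, and Ppp1r12c had 0.33, 0.08 and 0.18 on the NY1DD arrays, against 0.14, 0.02 and 0.19 on the C57BL/6J arrays. Ppp1r12c was positive on every array, at means of 0.20 (SE 0.13) and 0.12 (SE 0.13), while the NY1DD mean of Ppp1r12b, -0.58 (SE 0.31), was -0.10 without replicate 1 and -1.02 without replicate 2.

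The inhibitors of myosin phosphatase gave mostly negative means. Ppp1r14a had -0.51 (SE 0.38) in NY1DD and -0.24 (SE 0.38) in C57BL/6J, with NY1DD values from -1.37 to 0.76. Ppp1r14b had -0.16, 0.35 and -0.08 on the NY1DD arrays, against -0.28, 0.11 and -0.59 on the C57BL/6J arrays. It took both signs in both strains, and its C57BL/6J mean of -0.25 (SE 0.18) had an adjusted p of 0.925 in limma. Ppp1r14c, an inhibitor found in brain, was negative on all 3 NY1DD arrays, with means of -0.18 (SE 0.14) in NY1DD and -0.12 (SE 0.14) in C57BL/6J. Ppp1r9a, which holds the phosphatase at actin in dendritic spines, had -0.27 (SE 0.22) and -0.03 (SE 0.22). The other 5 subunits (Ppp1r2, Ppp1r3d, Ppp1r7, Ppp1r11 and Ppp1r26) had NY1DD means between 0.02 and 0.22 and C57BL/6J means between -0.13 and 0.26.

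**Figure D4:**
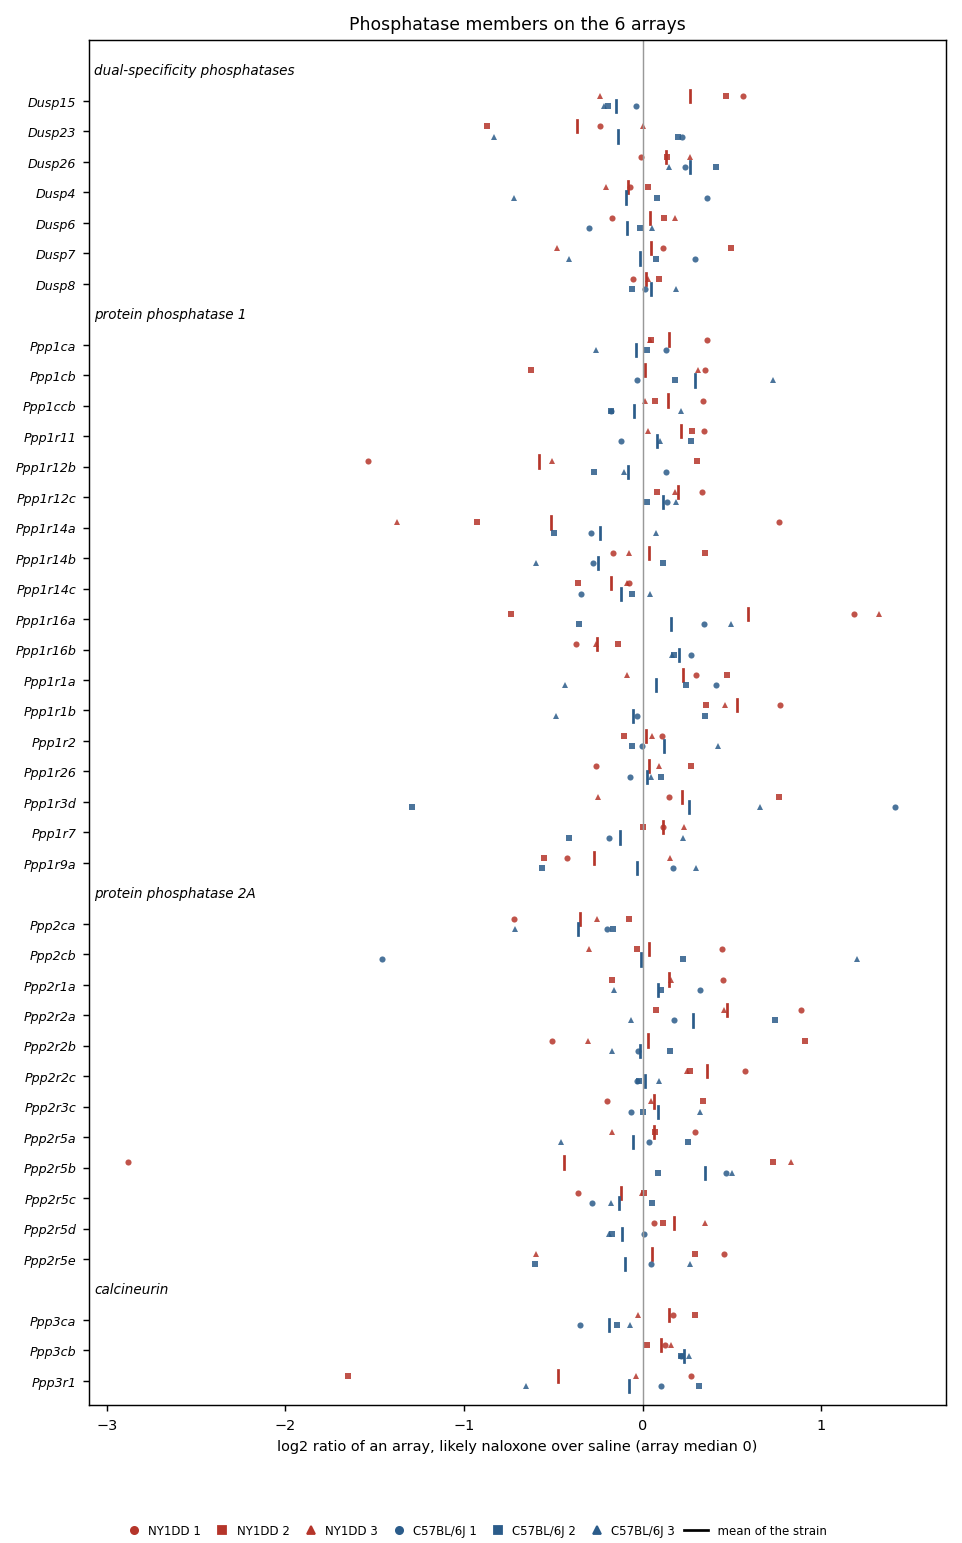
Log2 ratios of the 40 phosphatase members (1 row each, grouped by role) on the 3 NY1DD arrays (red, above) and the 3 C57BL/6J arrays (blue, below), with replicates 1, 2 and 3 as circle, square and triangle and a vertical bar at the strain mean. Ppp2r5b reaches -2.88 on NY1DD replicate 1, Ppp1r16b has all NY1DD points left of the C57BL/6J points, and the 6 points of Ppp3cb lie close together right of 0.

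Of 12 protein phosphatase 2A symbols, 9 had a positive mean in NY1DD (median 0.06), 5 in C57BL/6J (median -0.01) and 10 in the difference (median 0.05). The counts in NY1DD and in the difference were 6 and 7 of 12 without NY1DD replicate 2, and 7 and 7 of 12 after the well correction. The main catalytic subunit Ppp2ca had -0.72, -0.07 and -0.26 on the NY1DD arrays, against -0.20, -0.16 and -0.71 on the C57BL/6J arrays. It was negative on every array, with means of -0.35 (SE 0.18) and -0.36 (SE 0.18) and an adjusted p of 0.613 and 0.809 in limma. Of its 3 probes, 1 carried most of this, with means of -0.86 in NY1DD and -0.57 in C57BL/6J, while all 3 had negative means in both strains. A second probe was at the lower limit of the table on C57BL/6J replicate 3 and was left out there; with that value kept, the C57BL/6J mean was -1.02. The second catalytic subunit Ppp2cb had 0.45, -0.03 and -0.30 on the NY1DD arrays, against -1.46, 0.23 and 1.20 on the C57BL/6J arrays, and its C57BL/6J arrays spread over more than 2 log2 units. The scaffold Ppp2r1a had 0.45, -0.17 and 0.16 on the NY1DD arrays, against 0.32, 0.10 and -0.16 on the C57BL/6J arrays, with means near 0.

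The B-type subunits select the substrates of protein phosphatase 2A. Ppp2r2a had 0.88, 0.08 and 0.46 on the NY1DD arrays, against 0.18, 0.74 and -0.07 on the C57BL/6J arrays. It was positive on 5 of 6 arrays, with means of 0.47 (SE 0.21) in NY1DD and 0.28 (SE 0.21) in C57BL/6J, and its average of 0.38 (SE 0.15) was the highest of all members, with an adjusted p of 0.439 in limma. Ppp2r2c, a subunit found mainly in brain, had 0.57, 0.27 and 0.25 on the NY1DD arrays, against -0.03, -0.02 and 0.09 on the C57BL/6J arrays. All NY1DD arrays were above all C57BL/6J arrays, which lay within 0.1 of 0. The NY1DD mean was 0.36 (SE 0.13), with an unadjusted p of 0.0308 and an adjusted p of 0.580 in limma, and the difference was 0.35 (SE 0.19). Its 3 probes all had positive NY1DD means, from 0.11 to 0.59, and C57BL/6J means from -0.33 to 0.38. Ppp2r2b, another subunit of neurons, had 0.03 (SE 0.27) and -0.02 (SE 0.27).

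The 5 B56-type subunits differed mostly in spread. Ppp2r5d was positive on all 3 NY1DD arrays, with means of 0.17 (SE 0.13) in NY1DD and -0.12 (SE 0.13) in C57BL/6J and no overlap. Ppp2r5b had -2.88, 0.73 and 0.83 on the NY1DD arrays, against 0.47, 0.09 and 0.50 on the C57BL/6J arrays, so its NY1DD mean of -0.44 (SE 0.66) came from replicate 1 and its other 2 arrays were above every C57BL/6J value. Ppp2r5a, Ppp2r5c and Ppp2r5e had NY1DD means of 0.06 (SE 0.18), -0.12 (SE 0.15) and 0.05 (SE 0.25), and Ppp2r3c had 0.06 (SE 0.16).

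Calcineurin, the calcium-dependent phosphatase that opposes calcium/calmodulin kinase II at synapses, was read by 3 genes. The catalytic subunit Ppp3ca had 0.17, 0.29 and -0.03 on the NY1DD arrays, against -0.35, -0.14 and -0.07 on the C57BL/6J arrays. NY1DD was above C57BL/6J without overlap, by 0.33 (SE 0.20), but its 4 probes had NY1DD means from -0.12 to 0.58. The catalytic subunit Ppp3cb had 0.12, 0.03 and 0.16 on the NY1DD arrays, against 0.21, 0.21 and 0.26 on the C57BL/6J arrays. Every array was positive, the replicates were the closest of all members in C57BL/6J (SD 0.03), and NY1DD minus C57BL/6J was -0.13 (SE 0.17). The well correction brought this difference to -0.03, with overlap of the strains, and its 3 probes had C57BL/6J means from -0.02 to 0.58. Neither catalytic subunit passed the test of the difference (adjusted p 0.969 for both in limma). The calcium-binding subunit Ppp3r1 had 0.27, -1.65 and -0.04 on the NY1DD arrays, against 0.10, 0.32 and -0.65 on the C57BL/6J arrays, where the value on NY1DD replicate 2 came from 1 of its 2 probes, at -3.14 in a well with a median of -0.50. Without that array the NY1DD mean of Ppp3r1 was 0.12.

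Where a gene was read by several probes, they often disagreed. The probes of 9 of 24 members had means of the same sign in NY1DD (37.5%), against 47.3% of 1287 other genes with several probes, and those of 11 of 24 in C57BL/6J (45.8%), against 44.2%. All probes had negative means in NY1DD for Mapk10, Prkca, Ppp1r16b and Ppp2ca, and positive means for Camk2b, Camkk2, Ppp1r12c, Ppp2r1a and Ppp2r2c. The plot of probe means shows the widest disagreement for Camk2n1, Prkcb and Ppp3r1. For Prkcb the 4 probes ran from -0.90 to 0.66 in C57BL/6J, behind a gene mean of -0.04 (SE 0.16).

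**Figure D5:**
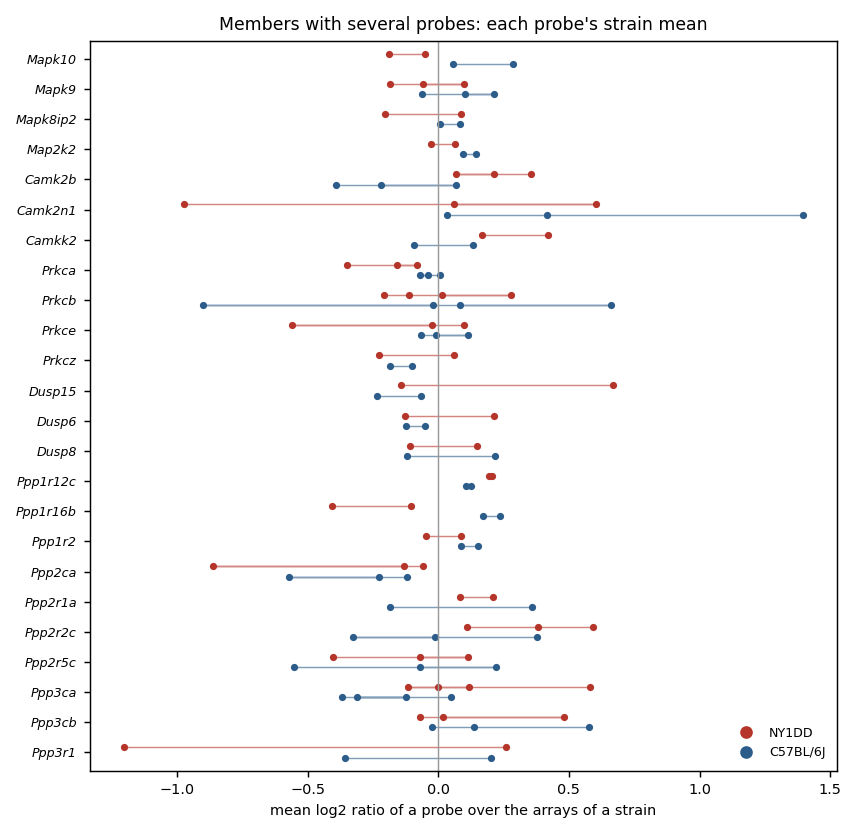
Mean log2 ratio of each probe in NY1DD (red, above) and C57BL/6J (blue, below) for the 24 members read by several probes, with a line joining the probes of a gene. The probes of Ppp1r16b lie left of 0 in NY1DD and right of 0 in C57BL/6J, and those of Camk2n1 span from -0.97 to 0.60 in NY1DD.

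Genes around the relay, taken from pathway lists that leave out the members, gave 0 called genes in every comparison. Upstream of the MAP kinases (Ras proteins, adaptors and their regulators), 23 of 45 listed genes were measured, and 13 of 23 were positive in each strain, with medians of 0.04 in NY1DD and 0.00 in C57BL/6J. The positive gene with the lowest p in both strains was Spry2, a feedback inhibitor of the relay, at 0.29 (SE 0.14) in NY1DD and 0.33 (SE 0.14) in C57BL/6J. The negative genes with the lowest p were Pebp1, an inhibitor of Raf, at -0.38 (SE 0.19) in NY1DD, and Rras at -0.45 (SE 0.24) in C57BL/6J. Their adjusted p ran from 0.593 to 0.825 in limma.

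Downstream of the MAP kinases, 19 of 39 listed genes were measured. Positive means numbered 12 of 19 in NY1DD (median 0.02) and 7 of 19 in C57BL/6J (median -0.08), against 47.5% and 49.7% of all features. By p, Fosl2, an AP-1 subunit, was the first positive gene in NY1DD at 0.38 (SE 0.14, adjusted p 0.580 in limma). By the same order Srf, the factor that partners with Elk1, was first in C57BL/6J at 0.45 (SE 0.14, adjusted p 0.469), and Jund, another AP-1 subunit, was first on the negative side there at -0.41 (SE 0.15, adjusted p 0.591). The highest means of the list were those of Mknk2, a kinase activated by MAP kinases, at 1.33 in NY1DD, and Creb1, which encodes CREB, at 0.54 in C57BL/6J, both named after their values were seen.

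Of the calcium, calmodulin and protein kinase C partners, 35 of 55 were measured, with 15 of 35 positive in NY1DD (median -0.06) and 21 of 35 in C57BL/6J (median 0.07). Atp2b4, a calcium pump of the plasma membrane, had a NY1DD mean of 0.68 (SE 0.17, adjusted p 0.494 in limma). Hpca, a calcium sensor of hippocampal neurons, had a NY1DD mean of -2.01 (SE 0.25, adjusted p 0.368), and its difference between the strains was -1.93 (SE 0.32, adjusted p 0.969). Caln1, a calmodulin-like protein of neurons, had 1.22 (SE 0.48, adjusted p 0.683) in C57BL/6J. None of the 3 passed the test.

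Markers of brain cell types were read beside the members, because in whole brain fewer cells of a type and less RNA per cell cannot be told apart. Positive means in NY1DD and C57BL/6J numbered 8 and 6 of 13 for neurons, 8 and 9 of 11 for oligodendrocytes and myelin, 3 and 5 of 9 for astrocytes, 2 and 1 of 3 for microglia and macrophages, and 6 and 6 of 8 for endothelial and mural cells. The 1 blood marker measured, Hba-a2, had -0.07 and -0.15. The medians of these lists lay between -0.08 and 0.11 in NY1DD and between -0.15 and 0.04 in C57BL/6J. The neuron markers ran widest in C57BL/6J, where Gad1, the GABA-synthesising enzyme, had -0.95 (SE 0.23, adjusted p 0.286 in limma) and Snap25, a synaptic protein, had 0.64 (SE 0.16, adjusted p 0.289). In NY1DD Gad1 had -0.36 (SE 0.23). No marker passed the test, and the part of cell composition in the members' values was not tested.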

How the data were processed

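The authors deposited, per the labels and the deposited table, natural log ratios of the 2 channels of 6 two-colour cDNA arrays of brain RNA; the labels do not give their background correction or normalization. The base was read from the values: raising e to them gave a multiple of 0.1 (tolerance 1e-06) for 401 of 67772, against 1 for base 2 and 2 for base 10. Here they were put on the log2 scale. The 293 values at the table's floor, a ratio of 0.01, became missing values, the median of every array was set to 0, and probes that the platform annotation gives the same single symbol were averaged. A probe needed values on at least 2 arrays of each strain: 11340 of 11502 probes, in 9685 features. All 6 arrays entered 1 limma model (limma 3.58.1 in R 4.3.3) with a mean for each strain and 4 residual degrees of freedom, with two-sided tests adjusted by Benjamini-Hochberg over all features and a threshold of 0.05. SE comes from this model and SD from the arrays. The fit was tested on simulated data of 9685 features, 100 of them shifted in NY1DD. At a log2 shift of 1 it called 67 of the 100, and at a shift of 2 it called 97. Each time 9 unchanged features were called as well. All member means in NY1DD were smaller than these shifts, between -0.69 and 0.62. No intensity of a single channel entered, so how far a spot stood above background is not known, and the number of arrays limits the precision.

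The members and lists were chosen with earlier results of these data known, so no list was tested. Array values are given for a set of core signalling genes and for the 5 members with the lowest p in each direction of each comparison among those measured on all 6 arrays; other members are given by means, counts and ranges, and genes outside the members only where they have the lowest p of a list in a direction. The values of Mapkapk2 and of further genes outside this rule were named after their values were seen. Promoter sequences are from RefSeq (GRCm38.p6).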

Additional observations from a re-analysis of the deposited data

Results flagged for a closer look

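Mapk4 and Ppp1r16b were picked out because every NY1DD array was negative and every C57BL/6J array was positive. The difference NY1DD minus C57BL/6J was -0.50 (SE 0.21) for Mapk4 and -0.46 (SE 0.18) for Ppp1r16b on the log2 scale, and neither passed limma's test of the difference (adjusted p 0.969 for both). Such opposite signs, in either direction, were seen for 2 of 75 members (2.67%), against 192 of 9175 features (2.09%). After the well correction the differences were -0.43 and -0.39, the signs were mixed and the strains overlapped for both genes. Opposite signs were then seen for 2 other members (Map2k1 and Ppp3ca), or 2.67%, against 2.41% of features.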

How the results depend on the processing

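The counts of called features stayed at 0 in all 4 comparisons under each of the 17 alternatives run, and the lowest adjusted p of a feature over these was 0.0627 (C57BL/6J). All 480 recomputed values of the 30 leading member results kept their direction, and none passed the threshold (lowest adjusted p 0.364 in limma). The 30 were picked by their p on the same arrays, and that choice itself favours a kept direction. Of the 480 values 25 moved by over 1.5 times, 20 of them on leaving out 1 array, in 13 of the 30 results. Leaving out 1 array, Ppp1r12b in NY1DD ran from -1.02 to -0.10, Ppp2ca in NY1DD from -0.49 to -0.16, Ppp2r2a in C57BL/6J from 0.06 to 0.46 and Mapk12 in C57BL/6J from -0.41 to -0.03. Leaving out each array in turn, the kinase median minus that of all other genes ran from -0.054 to 0.158 in NY1DD and from -0.064 to 0.021 in C57BL/6J, with the high end of the first without NY1DD replicate 2 and the low end of the second without C57BL/6J replicate 1. The phosphatase values ran from 0.05 to 0.10 in NY1DD and from -0.05 to 0.00 in C57BL/6J. The cause was not tested. The well correction, the alternatives for the counts of positive means and the averaging of C57BL/6J replicates 1 and 2, which share a title number, were chosen after seeing the data. With that averaging, as with the others, no feature was called. That number as a random block could not be fitted and was not run. With values as deposited, without centring, the median of all other genes was 0.02 in NY1DD and 0.03 in C57BL/6J, against -0.01 and 0.00 after centring, and 29 of 40 phosphatases were positive in NY1DD and 20 of 40 in C57BL/6J.

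With the replicate number as a block, 0 features were called in each comparison, and 798, 690, 496 and 1013 had an unadjusted p under 0.05 in NY1DD, C57BL/6J, their difference and their average. Same-numbered arrays of the strains had correlations of deviations of -0.07, 0.06 and 0.02 over features, so the numbers were not taken as pairs.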
